A study of Rattus norvegicus with 16 samples.

Results

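The circadian clock of the aged rat forebrain was examined here through 10 listed clock genes, Per1, Per2, Per3, Cry1, Cry2, Clock, Nr1d1, Nr1d2, Dbp and Ciart. A gene was taken as measured when the array annotation gave exactly its symbol to a transcript cluster, the group of probes that reads 1 gene. By this rule 8 of the 10 genes were found, each with 1 cluster, among 27342 clusters in all. Nr1d2 and Ciart had no cluster of their own symbol and were not analysed here. The measurements were 16 microarrays of male Sprague-Dawley rats that were 15 months old at the start, aged animals of an outbred laboratory strain. The study asked how a diet with curcumin, a polyphenol of turmeric, fed over 6 or over 12 weeks, acted on gene expression in hippocampus and cortex.

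The 8 groups were hippocampus of curcumin-fed and of control-fed rats after 6 weeks, hippocampus of curcumin-fed and of control-fed rats after 12 weeks, and the same 4 groups of cortex, with 2 arrays per group. Curcumin-fed rats ate chow with curcumin mixed in and control rats ate chow without it. Each array held RNA pooled from 3 rats, and hippocampus and cortex came from the same rats. The labels call both arrays of a group biological replicates, and 6 rats per group would give 2 pools, whereas the methods also state that each RNA sample was hybridised in duplicate. Which of these the 2 arrays are was not settled, so the p-values measure the spread between arrays, which may be technical. Values are log2 signals, on which a difference of 1 is a doubling, and levels are compared only within a gene.

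In mammals the clock is a feedback loop of transcription. CLOCK or NPAS2 pairs with BMAL1 and switches on the Per and Cry genes through E-box motifs, and PER and CRY proteins then hold that pair back. A second loop runs through NR1D1 (REV-ERB alpha), which represses Bmal1, while DBP activates genes through D-box motifs. In most rodent tissues Dbp and Nr1d1 transcripts peak in the light phase and Per transcripts somewhat later, and Bmal1 runs near the opposite phase, so that their levels depend on the hour at which tissue is taken.

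The rats lived in equal periods of light and dark with lights on in the morning, but the hour of killing was not given in the sources used here. The labels of 0 of the 16 samples held an hour or a date. The 6-week and 12-week rats were killed after different durations, and the 12-week rats were older when killed. The hour or day of killing, the age at killing and the duration of feeding therefore cannot be told apart. Whether curcumin and control rats of 1 duration were killed at the same hour was not given either. Each comparison below is therefore a difference between sets of rats killed at an unknown hour. The paper also reports behavioural tests and daily injections of a label for dividing cells towards the end of feeding. The part of this handling in the values was not tested.

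Several arrays carried markers of neighbouring tissue. The mean log2 level of 7 measured choroid plexus markers was 8.05 and 8.60 in replicate 2 of the curcumin and control hippocampus after 6 weeks, against 5.62 to 6.46 in the other 6 hippocampal arrays. Replicate 2 of the 6-week cortex control stood apart with 8.63 for 5 olfactory bulb markers and 7.07 for 8 suprachiasmatic and hypothalamic markers. The next highest cortical array for the latter was replicate 2 of the 12-week curcumin cortex, at 6.41. Of 7 striatal markers, the mean was 8.97 in replicate 1 of the 6-week cortex control and 8.31 in replicate 2 of the 12-week cortex control, against 6.69 to 7.84 in the other 6 cortical arrays. The suprachiasmatic nucleus of the hypothalamus holds the master clock. In bulk tissue, fewer cells of a type and less RNA per cell cannot be told apart. The labelled tissues were checked on granule cell markers of the dentate gyrus, with Prox1 1.57 ± 0.09 and C1ql2 1.84 ± 0.08 higher on the log2 scale in hippocampus than in cortex (limma, adjusted p = 2.79e-06 and 7.97e-07, SE, 8 arrays each).

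The motifs of the loop can be read in the promoters of some of these genes. The windows shown hold the 250 bases before the start of Bmal1, Per2 and Nr1d1 in the rat assembly GRCr8 (RefSeq), chosen because they hold a match and because the genes lie on opposite arms of the loop. Capitals mark the letters searched on both strands, which were CACGTG (E-box), CACGTT or AACGTG (a variant E-box), TTATGTAA (D-box) and TAGGTCA (the element bound by NR1D1 and ROR proteins). The Bmal1 window is on the plus strand of chromosome 1 and the other 3 windows are on the minus strand of chromosomes 9 and 10.
Bmal1, chr1:176766078-176766327: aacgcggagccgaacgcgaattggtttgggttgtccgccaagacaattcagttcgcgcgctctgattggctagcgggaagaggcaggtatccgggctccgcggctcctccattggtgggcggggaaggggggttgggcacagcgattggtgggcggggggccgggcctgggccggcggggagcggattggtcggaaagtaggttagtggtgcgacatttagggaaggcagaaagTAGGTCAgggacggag
Per2, chr9:99496994-99497243: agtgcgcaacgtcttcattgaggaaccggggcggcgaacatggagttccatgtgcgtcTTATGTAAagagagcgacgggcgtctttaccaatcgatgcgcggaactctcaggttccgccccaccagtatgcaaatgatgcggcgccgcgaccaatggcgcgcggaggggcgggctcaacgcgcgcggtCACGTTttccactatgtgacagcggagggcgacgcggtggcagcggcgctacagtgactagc
Nr1d1, chr10:84231813-84232062: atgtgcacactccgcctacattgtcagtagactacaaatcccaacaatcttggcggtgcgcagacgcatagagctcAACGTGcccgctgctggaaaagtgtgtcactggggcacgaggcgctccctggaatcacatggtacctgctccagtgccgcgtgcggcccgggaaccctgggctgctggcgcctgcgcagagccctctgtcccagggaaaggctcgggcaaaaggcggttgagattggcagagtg
Nr1d1, chr10:84229455-84229704: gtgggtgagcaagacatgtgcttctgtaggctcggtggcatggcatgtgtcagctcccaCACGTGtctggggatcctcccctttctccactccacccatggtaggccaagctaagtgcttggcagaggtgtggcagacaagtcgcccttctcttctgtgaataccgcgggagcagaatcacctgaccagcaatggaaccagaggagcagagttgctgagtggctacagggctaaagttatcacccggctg

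The Bmal1 window held TAGGTCA from 16 to 10 bases before the start, and 2.26% of all 33469 rat windows of this length held that motif. The Per2 window held TTATGTAA from 192 to 185 bases before the start and CACGTT from 62 to 57, motifs found in 0.828% and 4.07% of windows. Of the 2 Nr1d1 windows, 1 held the E-box CACGTG from 191 to 186 bases before its start, a motif of 5.59% of windows, and the other held AACGTG from 174 to 169. Cry2 held AACGTG from 212 to 207, whereas the windows of Per1, Per3, Dbp, Clock and Npas2 held none of the 4 motifs. Of the 2 genes with no measurement, Ciart held the E-box CACGTG 3 times, from 93 to 88, from 35 to 30 and from 21 to 16 bases before its start, and Nr1d2 held none of the motifs. Cry1 had no window in the table. A match is a string of letters and was not tested for binding.

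With the diets compared, none of the 8 clock genes differed between curcumin-fed and control-fed rats past the threshold in either tissue at either duration (limma over all arrays, Benjamini-Hochberg adjusted p under 0.05). The values of the Per genes in the cortex lay furthest apart, with Per1 and Per3 on opposite sides of 0 at 6 and 12 weeks and Per2 higher in curcumin-fed rats at both. The share of all clusters called was 0% in the hippocampus at 6 weeks, 0.00366% in the hippocampus at 12 weeks, 0.106% in the cortex at 6 weeks and 3.24% in the cortex at 12 weeks. At an unadjusted p under 0.05, the numbers of clock genes were 0, 0, 2 and 4 in the same order, against 2.03%, 5.11%, 12% and 15.1% of all clusters.

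**Figure D1:**
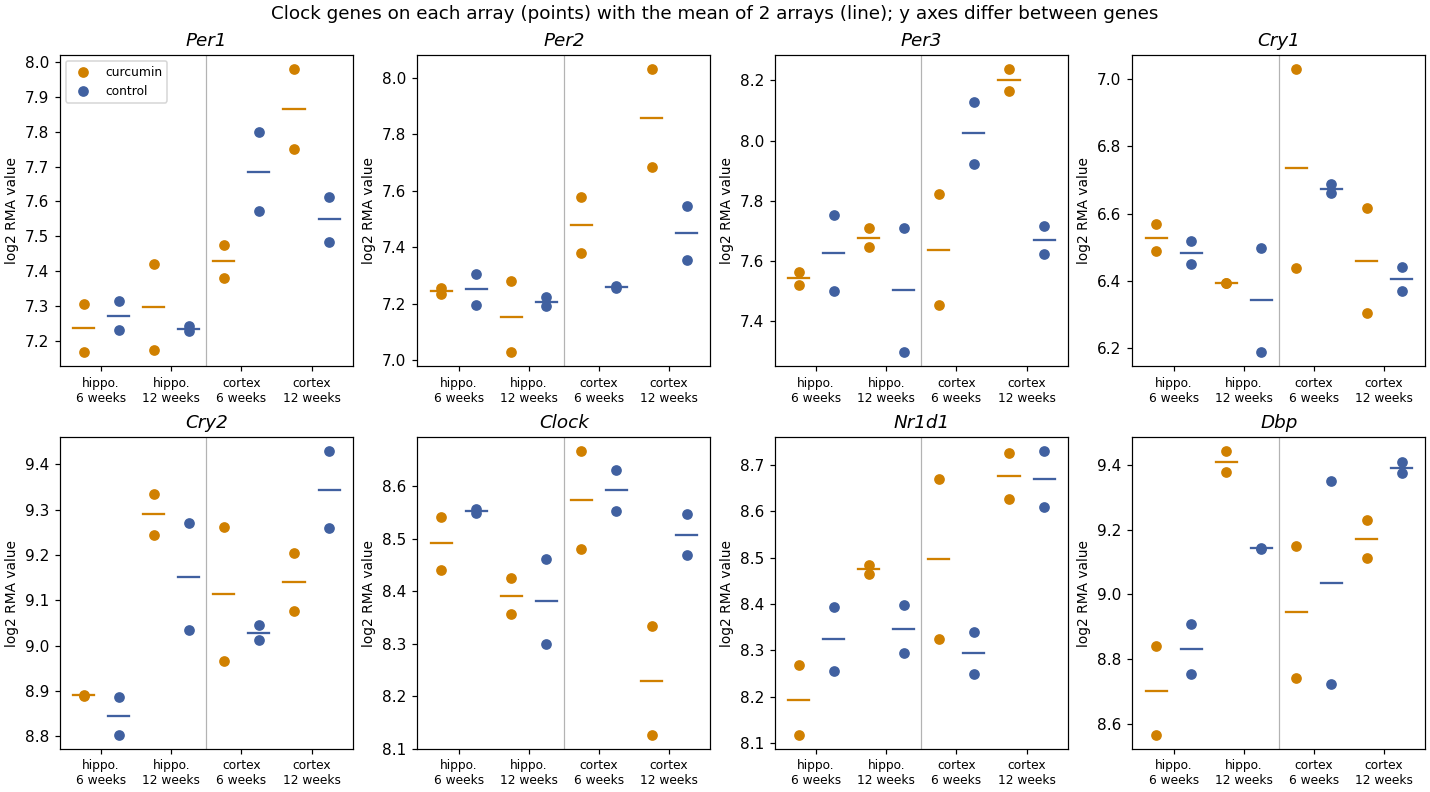
Log2 values of the 8 clock genes (y axis, scale differing between genes) on each array, by tissue and duration (x axis), with curcumin left of control; points are arrays and lines are means of 2 arrays. In the cortex after 12 weeks, both curcumin arrays of Per1, Per2 and Per3 lie above both control arrays, and the Dbp points of the hippocampus lie higher at 12 than at 6 weeks.

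The Per genes encode the period proteins, the negative arm of the loop, and Per1 and Per2 also respond to light and neuronal activity. In the cortex after 12 weeks, Per1 was at 7.98 and 7.75 in curcumin-fed rats, against 7.61 and 7.48 in controls. Per2 was at 8.03 and 7.69 in curcumin-fed rats, against 7.55 and 7.36 in controls. Per3 was at 8.16 and 8.24 in curcumin-fed rats, against 7.62 and 7.72 in controls. In each of the 3 genes both curcumin arrays were above both control arrays, and arrays of the diets did not overlap for 44.3% of all clusters in this comparison. The differences were 0.32 ± 0.11 for Per1 (adjusted p = 0.163), 0.41 ± 0.12 for Per2 (adjusted p = 0.0989) and 0.53 ± 0.15 for Per3 (adjusted p = 0.0815; limma, log2 ± SE, n = 2 arrays per group). The Per3 difference passed at 0.53 when the arrays were quantile normalized again, over all arrays (adjusted p = 0.0386) or within each tissue (adjusted p = 0.0406). Without replicate 2 of the controls, which was high in striatal markers, the differences were 0.25 for Per1, 0.31 for Per2 and 0.58 for Per3 (adjusted p = 0.512, 0.418 and 0.199).

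Clock, the activator that pairs with BMAL1, was at 8.33 and 8.13 in the cortex of curcumin-fed rats after 12 weeks, against 8.55 and 8.47 in controls. The arrays did not overlap, and the difference of -0.28 ± 0.09 did not pass (adjusted p = 0.131, limma, n = 2 arrays per group). Cry2 and Dbp were also lower on both curcumin arrays, by -0.20 and -0.22 in the mean, whereas Cry1 and Nr1d1 differed by 0.05 and 0.01. In all, 3 of the 8 genes were higher and 3 lower without overlap, against 22.3% and 22% of all clusters. Of the partners of CLOCK, Npas2 was 0.23 ± 0.12 higher (adjusted p = 0.427) and Bmal1 differed by -0.06.

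No member of the other gene lists examined beside the clock genes passed in the same cortical comparison, and the values of some lists are given as a description. The RNA-binding genes Cirbp and Rbm3, which are induced by mild cold and follow the daily rhythm of body temperature in mice, were 0.31 and 0.25 higher on both curcumin arrays (adjusted p = 0.254 and 0.295). The mean level of 12 immediate early genes, which follow neuronal activity, overlapped between the diets, with 10 of 12 differences negative and a median of -0.24. Of 12 glucocorticoid response genes, which follow the daily and stress-driven secretion of corticosterone, 10 were negative, with mean levels of 8.16 to 8.30 in curcumin-fed rats and 8.36 to 8.48 in controls. All 11 oligodendrocyte markers, all 8 astrocyte markers and all 7 striatal markers were negative, with medians of -0.16, -0.17 and -0.51. Of 11 microglia markers 8 were positive and 3 negative, with a median of 0.21. The mean levels of the oligodendrocyte, astrocyte, striatal and microglia lists overlapped between the diets. That of the suprachiasmatic and hypothalamic list was 5.80 and 6.41 on the curcumin arrays, against 5.86 and 5.82 on the control arrays. The higher curcumin value was that of replicate 2. The part of these lists in the values of the clock genes was not tested.

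**Figure D2:**
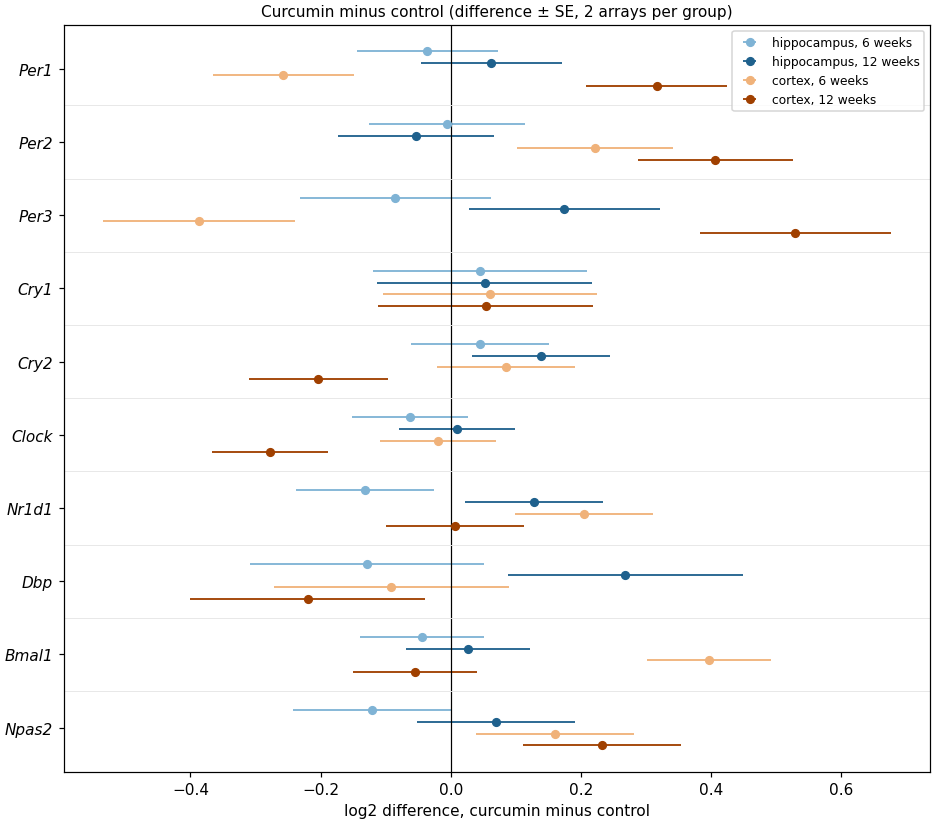
Difference between curcumin and control (x axis, log2) for the 8 clock genes and Bmal1 and Npas2 (y axis) in the 4 tissue and duration groups; points are differences of the means of 2 arrays and bars are standard errors. No difference passed an adjusted p of 0.05, and Per1 and Per3 lie on opposite sides of 0 in the cortex at 6 and 12 weeks.

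In the cortex after 6 weeks the Per genes did not move together. Per1 was at 7.38 and 7.47 in curcumin-fed rats, against 7.57 and 7.80 in controls. Per3 was at 7.45 and 7.82 in curcumin-fed rats, against 8.13 and 7.92 in controls. Both were lower without overlap, by -0.26 ± 0.11 (adjusted p = 0.368) and -0.39 ± 0.15 (adjusted p = 0.312, limma, n = 2 arrays per group). Per2 was at 7.38 and 7.58 in curcumin-fed rats, against 7.26 and 7.25 in controls, a difference of 0.22 ± 0.12 (adjusted p = 0.514). Here 1 clock gene was higher and 2 were lower without overlap, against 36.3% of all clusters in either direction. Bmal1 was at 7.85 and 8.02 in curcumin-fed rats, against 7.60 and 7.47 in controls, a difference of 0.40 ± 0.10 (adjusted p = 0.130).

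Both control arrays of this comparison stood apart, replicate 1 in striatal and replicate 2 in olfactory bulb and hypothalamic markers. Without replicate 1 the differences were -0.37 for Per1, -0.28 for Per3 and 0.46 for Bmal1, and none passed (adjusted p = 0.165, 0.533 and 0.0672). Without replicate 2 the differences were -0.14 for Per1, -0.49 for Per3 and 0.33 for Bmal1 and none passed (lowest adjusted p = 0.572, of Bmal1), with 1 control array left whose spread is taken from the other groups. All 11 oligodendrocyte markers were negative, with mean levels of 8.19 to 9.09 in curcumin-fed rats and 9.21 to 9.64 in controls. All 7 striatal markers were negative (median -0.56), and Slc17a7, the vesicular glutamate transporter of excitatory neurons, was called higher (0.81, adjusted p = 0.0368). All 11 microglia markers (median -0.41), all 12 glucocorticoid response genes (median -0.39) and all 8 suprachiasmatic and hypothalamic markers (median -0.52) were negative as well. The part of these lists was not tested.

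In the hippocampus the diets lay closer together. After 6 weeks the 8 differences ran between -0.13 and 0.05, with 1 gene higher and 1 lower without overlap against 35% of all clusters. After 12 weeks they ran between -0.05 and 0.27, with 2 genes higher without overlap against 27.4% of clusters. These 2 were Dbp, the D-box activator, and Nr1d1, the repressor of Bmal1. Dbp was at 9.38 and 9.44 in curcumin-fed rats, against 9.14 and 9.14 in controls, a difference of 0.27 ± 0.18 (adjusted p = 0.999, limma, n = 2 arrays per group). Nr1d1 was at 8.48 and 8.46 in curcumin-fed rats, against 8.29 and 8.40 in controls, a difference of 0.13 ± 0.11 (adjusted p = 0.999). With 2 arrays a group, the 95% intervals of single hippocampal differences reached from -0.53 to 0.66, so changes of such a size could not be detected.

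The opposite signs in the cortex were tested as the curcumin effect at 12 weeks minus that at 6 weeks. For Per3 this was 0.92 ± 0.21 (adjusted p = 0.0576) and for Per1 0.57 ± 0.15 (adjusted p = 0.0945), and 0 of 8 clock genes passed, where 1.47% of all clusters were called. At an unadjusted p under 0.05 there were 2 of 8, against 14.7% of clusters. Per3 passed without the dimmest 25% of clusters (adjusted p = 0.0458), with quantile normalization (0.0295) and with a variance trend (0.0354), and Per1 without replicate 1 of the 6-week control (0.69, adjusted p = 0.0437). In the hippocampus 0 of 8 passed the same test, where 0% of clusters were called, and 0 of 8 had an unadjusted p under 0.05, against 3.43% of clusters. The effect in hippocampus minus that in cortex passed for 0 of 8 genes at 6 weeks, where 0% of clusters were called, and for 0 of 8 at 12 weeks, where 0.19% were. At an unadjusted p under 0.05 there was 1 gene at 6 weeks, against 5.48% of clusters, and 3 at 12 weeks, against 10.6%.

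The 2 durations differed more evenly. Dbp, Cry2 and Nr1d1 were higher and Clock and Bmal1 lower after 12 than after 6 weeks in the mean of the 4 tissue and diet groups, a contrast that was added after the 4 separate ones had been seen. In each of the 4 separate comparisons 0 of 8 clock genes passed (limma), against 2.27% of all clusters called in the curcumin-fed and 4.27% in the control hippocampus, and 3.24% in the curcumin-fed and 8.85% in the control cortex. At an unadjusted p under 0.05 the numbers were 3, 1, 4 and 3 of 8, against 15%, 17.5%, 15.5% and 23.4% of all clusters. Separate comparisons share no arrays with each other, but hippocampus and cortex of a duration came from the same rats, so the 4 are not independent.

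Dbp, an output gene of the loop with a wide daily swing, was at 9.38 and 9.44 in the curcumin-fed hippocampus after 12 weeks, against 8.57 and 8.84 after 6 weeks. In the control hippocampus it was at 9.14 and 9.14 after 12 weeks, against 8.91 and 8.75 after 6 weeks. In the curcumin-fed cortex it was at 9.11 and 9.23 after 12 weeks, against 8.74 and 9.15 after 6 weeks. The durations overlapped only there, and in the control cortex Dbp was at 9.41 and 9.38 after 12 weeks, against 9.35 and 8.72 after 6 weeks. The differences were 0.71 ± 0.18, 0.31 ± 0.18, 0.23 ± 0.18 and 0.36 ± 0.18 (adjusted p = 0.0725, 0.429, 0.656 and 0.269, limma, n = 2 arrays per group), and that of the curcumin-fed hippocampus, a 1.63-fold difference, was the only 1 of 64 diet and duration differences of single clock genes past 1.5-fold. It passed with only the 8 hippocampal arrays fitted (adjusted p = 0.0313) and with array weights (0.0415), and the control cortex passed without its 6-week replicate 1 (0.67, adjusted p = 0.0246). The mean of the 4 was 0.40 ± 0.09 (adjusted p = 0.00951).

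Cry2, a cryptochrome that represses the CLOCK and BMAL1 pair, was at 9.34 and 9.24 in the curcumin-fed hippocampus after 12 weeks, against 8.89 and 8.89 after 6 weeks. In the control hippocampus it was at 9.03 and 9.27 after 12 weeks, against 8.89 and 8.80 after 6 weeks. In the control cortex it was at 9.43 and 9.26 after 12 weeks, against 9.01 and 9.04 after 6 weeks. In these 3 pairs the durations did not overlap, whereas in the curcumin-fed cortex they did, with 9.20 and 9.08 against 8.97 and 9.26. The mean of the 4 differences was 0.26 ± 0.05 (adjusted p = 0.00532). Cry1, the other cryptochrome, had differences of -0.13 and -0.14 in the curcumin-fed and control hippocampus and -0.27 in both cortical pairs, with a mean of -0.20 ± 0.08 that did not pass (adjusted p = 0.111). Without replicate 1 of the 6-week curcumin cortex that mean passed (-0.28, adjusted p = 0.00881).

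Nr1d1 was at 8.73 and 8.61 in the control cortex after 12 weeks, against 8.34 and 8.25 after 6 weeks, a difference of 0.37 ± 0.11 (adjusted p = 0.0510). It passed without the dimmest 25% of clusters (0.0452), with quantile normalization (0.0354), with a variance trend (0.0439) and with array weights (0.0380). In the curcumin-fed hippocampus it was at 8.48 and 8.46 after 12 weeks, against 8.27 and 8.12 after 6 weeks. The differences of the curcumin-fed cortex and the control hippocampus were 0.18 and 0.02, both with overlapping arrays, and the mean of the 4 was 0.21 ± 0.05 (adjusted p = 0.0156). Nr1d1 lies partly opposite Thra on the other strand, and which probes of its cluster fall there was not examined.

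Clock ran the other way. In the curcumin-fed cortex it was at 8.33 and 8.13 after 12 weeks, against 8.48 and 8.67 after 6 weeks, a difference of -0.34 ± 0.09 (adjusted p = 0.0651). In the other 3 pairs it differed by -0.08 to -0.17, and in all 4 pairs both 12-week arrays were below both 6-week arrays. The gap was narrow in some pairs. The nearest arrays of 12 and 6 weeks were at 8.547 and 8.554 in the control cortex. They were at 8.425 and 8.440 in the curcumin-fed hippocampus. The mean difference of Clock over the 4 pairs was -0.18 ± 0.04 (limma, adjusted p = 0.0176). Its partner Bmal1, which NR1D1 represses, was at 7.50 and 7.50 in the curcumin-fed cortex after 12 weeks, against 7.85 and 8.02 after 6 weeks, and this fall of -0.43 ± 0.10 passed (adjusted p = 0.0343) but was lost when any 1 of these 4 arrays was left out (adjusted p = 0.0513 to 0.191). Bmal1 also differed by -0.27 in the curcumin-fed and -0.34 in the control hippocampus and by 0.02 in the control cortex, with a mean of -0.26 ± 0.05 (adjusted p = 0.00326).

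**Figure D3:**
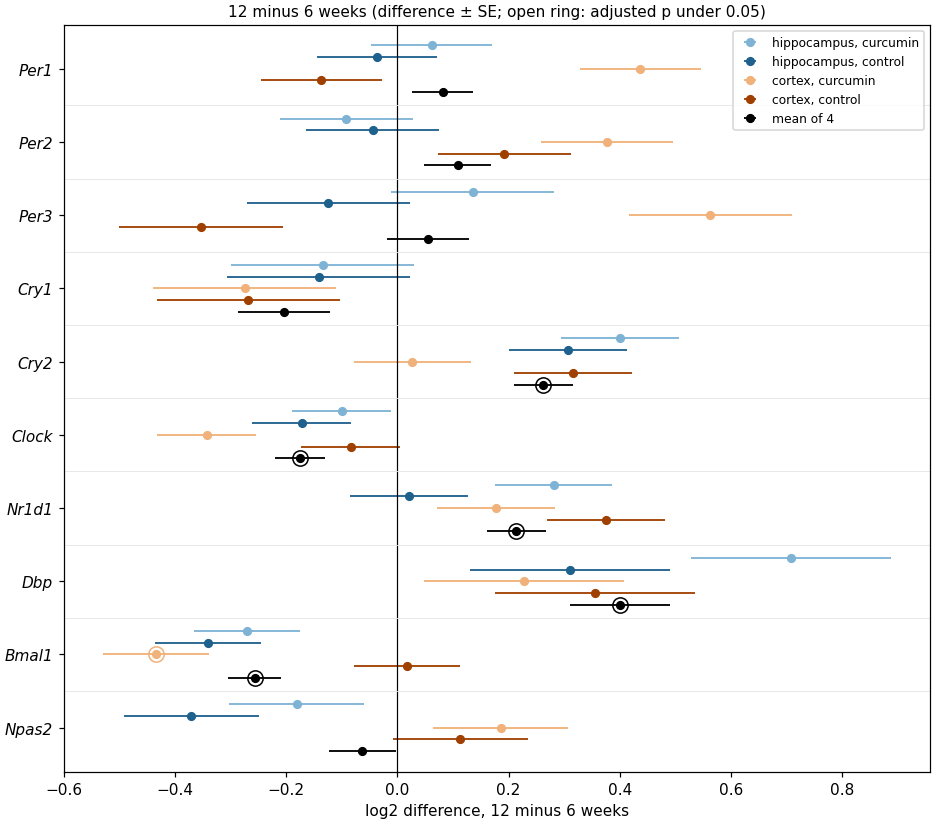
Difference between 12 and 6 weeks (x axis, log2) for the 8 clock genes and Bmal1 and Npas2 (y axis) in each tissue and diet and in the mean of the 4; points are differences, bars are standard errors and open rings mark an adjusted p under 0.05. The means of Dbp, Cry2 and Nr1d1 lie right of 0 and those of Clock and Bmal1 left of it.

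The Per genes had no common duration difference, with means of 0.08, 0.11 and 0.05 for Per1, Per2 and Per3 (adjusted p = 0.357, 0.253 and 0.680). In the curcumin-fed cortex all 3 were higher after 12 weeks without overlap, by 0.44 ± 0.11 for Per1 (adjusted p = 0.0547), 0.38 ± 0.12 for Per2 (0.128) and 0.56 ± 0.15 for Per3 (0.0665, limma, n = 2 arrays per group). Per3 and Clock passed in this comparison with quantile normalization (adjusted p = 0.0288 and 0.0349). In the control cortex Per3 differed by -0.35 and Per1 by -0.14, while Per2 differed by 0.19. The curcumin and control comparisons of a tissue were fitted with 1 spread and their difference is the interaction given above.

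Counted over the mean of the 4 pairs, 3 of 8 clock genes rose, against 10.9% of all clusters, and 1 fell, against 8.97%, so that 4 of 8 were called where 19.9% of all clusters were. Arrays of the durations were apart in the same direction in all 4 pairs for 1 clock gene, Clock, and for 7.21% of clusters. In single pairs, 4 clock genes were higher and 2 lower without overlap in the curcumin-fed hippocampus (46.9% of clusters), 2 higher and 1 lower in the control hippocampus (47.3%), 3 higher and 1 lower in the curcumin-fed cortex (38.8%), and 4 higher and 3 lower in the control cortex (54.9%). Within the hippocampus, averaged over both diets, Cry2 rose by 0.35 ± 0.08 (adjusted p = 0.0122) and Dbp by 0.51 ± 0.13 (adjusted p = 0.0270), 2 of 8 up against 6.3% of clusters and 0 of 8 down against 4.54%, with 10.8% called in all. Within the cortex, Nr1d1 rose by 0.28 ± 0.07 (adjusted p = 0.0423), 1 of 8 up against 5.38% and 0 of 8 down against 3.89%, with 9.27% called in all. At an unadjusted p under 0.05 the cortex had 6 of 8 genes, against 23.3% of all clusters, and the hippocampus 2 of 8, against 24.4%.

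These calls within 1 tissue were less firm than those over both. The hippocampal call of Dbp was lost without any 1 of the 8 hippocampal arrays except replicate 2 of the 6-week curcumin group (0.44 to 0.55, adjusted p = 0.0555 to 0.111). That of Cry2 was lost without replicate 2 of the 6-week control (0.33, adjusted p = 0.0512). The cortical call of Nr1d1 was lost without any 1 of the 8 cortical arrays except replicate 2 of the 6-week curcumin group (0.19 to 0.31, adjusted p = 0.0561 to 0.143). In the cortex, calls were gained for Dbp without replicate 1 of the 6-week control (0.45, adjusted p = 0.0210) and for Per2 without replicate 2 of the 12-week curcumin group (0.37, 0.0189). Clock was gained without replicate 1 of the 6-week or of the 12-week curcumin group (-0.26 and -0.27, adjusted p = 0.0378 and 0.0392), and Cry1 without the first of these (-0.42, 0.0185).

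Several duration calls were lost when arrays with markers of neighbouring tissue were left out. Each of their groups then held 1 array, so a part of these markers and a loss of precision cannot be told apart. The differences of Cry2 and Clock kept their size, and the share of all clusters called in the mean of the 4 pairs fell from 19.9%. Without replicate 2 of both 6-week hippocampus groups and of the 6-week cortex control, Dbp was the only clock gene still called in the mean of the 4 pairs (0.34, adjusted p = 0.0227), with 9.65% of all clusters called. Bmal1 was also called (-0.29, adjusted p = 0.0202), whereas Cry2 at 0.26, Clock at -0.18 and Nr1d1 at 0.17 were not (adjusted p = 0.0642, 0.104 and 0.168). In the hippocampus Dbp was the only clock gene called without them (0.54, adjusted p = 0.0384), and in the cortex none was. All 7 choroid plexus markers had negative differences in the mean of the 4 pairs (median -0.74), as had all 6 endothelial, all 5 olfactory bulb and all 7 striatal markers (medians -0.22, -0.33 and -0.17), although among these lists only Abcb1a, Pbx3 and Dlx5 passed. Some markers of other cells were called higher after 12 weeks. These were Slc17a7 (0.34, adjusted p = 0.000305) and Neurod6 (0.31, 0.0451) of excitatory neurons and Sst of interneurons (0.48, 0.000503). Tmem119 and Cx3cr1 of microglia (0.32 and 0.31, 0.000995 and 0.0173) and Gja1 of astrocytes (0.15, 0.0194) were higher too. Prox1 of granule cells (-0.44, 0.00541) and S100b and Slc4a4 of astrocytes (-0.12 and -0.32, 0.0263 and 0.0393) were called lower. Positive differences were 4 of 5 in the excitatory neuron, 2 of 7 in the interneuron, 6 of 11 in the microglia and 4 of 8 in the astrocyte list. The 4 calls of Clock, Cry2, Dbp and Nr1d1 were kept without either array high in striatal markers, and the part of these markers was not tested beyond this.

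Of 20 further clock genes listed, 14 were measured. In the mean of the 4 pairs 1 of them rose, against 10.9% of all clusters, and 4 fell, against 8.97%. Cipc, an inhibitor of CLOCK, rose by 0.14 ± 0.03 (adjusted p = 0.0174), a call lost without the 3 arrays with markers of neighbouring tissue (0.13, adjusted p = 0.132). Besides Bmal1, Nfil3 (E4BP4), the D-box repressor that opposes DBP, fell by -0.23 ± 0.05 (limma, adjusted p = 0.00670). Noct fell by -0.45 ± 0.09 (adjusted p = 0.00581), and Btrc, a ligase subunit that targets PER proteins, by -0.10 ± 0.03 (adjusted p = 0.0271). The call of Btrc was lost without any 1 of 7 arrays (adjusted p = 0.0521 to 0.0701), namely replicate 1 of the 12-week control of both tissues, of the 12-week curcumin cortex and of the 6-week control of both tissues, and replicate 2 of both curcumin hippocampus groups. Nfil3 ranged from 6.69 to 6.96 over the 8 arrays of 12 weeks, against 6.88 to 7.30 over the 8 arrays of 6 weeks. Noct ranged from 7.41 to 7.87 after 12 weeks, against 7.89 to 8.55 after 6 weeks, with no overlap between the durations.

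Among the separate pairs, Noct fell by -0.71 ± 0.18 and Bhlhe40, a repressor of the loop that answers to light and activity, rose by 0.52 ± 0.13 in the control cortex (both adjusted p = 0.0366), and both calls were lost without replicate 2 of the 6-week or replicate 1 of the 12-week group. Bhlhe40 also lost its call without replicate 1 of the 6-week group and Noct without replicate 2 of the 12-week group, with values of 0.35 to 0.56 and -0.74 to -0.40 when they were lost. Npas2, which can take the place of CLOCK in the forebrain, differed by -0.18 in the curcumin-fed and -0.37 in the control hippocampus and by 0.19 and 0.11 in the cortex, with a mean of -0.06. Within a single tissue, Bmal1 and Nfil3 fell in the hippocampus (-0.31 and -0.25, adjusted p = 0.0147 and 0.0431). In the cortex Noct fell (-0.61, adjusted p = 0.0149) and the kinase gene Csnk1d rose (0.13, adjusted p = 0.0481). Bmal1 lost its call without replicate 1 of the 6-week curcumin or replicate 2 of the 6-week control or 12-week curcumin hippocampus (-0.29 to -0.25). It was also lost without the 3 arrays with markers of neighbouring tissue. Csnk1d lost its call without any 1 cortical array, and Nfil3 without any 1 hippocampal array except replicate 2 of the 12-week curcumin group (adjusted p = 0.0559 to 0.162). Noct lost it without replicate 1 of the 12-week curcumin or replicate 2 of the 12-week control cortex (adjusted p = 0.0563 and 0.0503). Cirbp, the cold-induced gene, rose by 0.22 ± 0.06 in the mean of the 4 pairs (adjusted p = 0.0289) and lost its call without any 1 of 10 arrays (0.20 to 0.23, adjusted p = 0.0507 to 0.0726), which were spread over both tissues, diets and durations. Rbm3 differed by 0.15 ± 0.05 (adjusted p = 0.0792).

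Between the tissues, the 3 Per genes and Nr1d1 were lower in hippocampus than in cortex and no clock gene was higher. Per1 ran from 7.17 through a median of 7.24 to 7.42 over the 8 hippocampal arrays, against 7.38, 7.59 and 7.98 over the 8 cortical arrays. Per2 ran from 7.03 through 7.23 to 7.31 in hippocampus, against 7.25, 7.46 and 8.03 in cortex. Per3 ran from 7.30 through 7.60 to 7.75 in hippocampus, against 7.45, 7.87 and 8.24 in cortex. The hippocampal values of all 3 genes were the more even, and the ranges of the tissues overlapped. The mean differences of the 4 diet and duration groups were -0.37 ± 0.05 for Per1 (adjusted p = 0.00127), -0.30 ± 0.06 for Per2 (0.00885), -0.30 ± 0.07 for Per3 (0.0264) and -0.20 ± 0.05 for Nr1d1 (0.0367, limma, 8 arrays per tissue).

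The tissue difference of Per1 was present in each group, with -0.57 and -0.31 in curcumin-fed and control rats after 12 weeks and -0.19 and -0.41 after 6 weeks, and hippocampal arrays lay below cortical arrays in all 4. Per2 differed by -0.70 and -0.24 in curcumin-fed and control rats after 12 weeks and by -0.23 and -0.01 after 6 weeks. Clock, Cry2 and Dbp had differences of either sign. In the curcumin-fed rats after 12 weeks they were 0.16, 0.15 and 0.24 higher in hippocampus in the mean. In the controls of that duration they differed by -0.13, -0.19 and -0.25. The tissue difference was not tested within single groups. Over the 4 groups Clock, Cry1, Cry2 and Dbp differed by -0.02, -0.13, -0.11 and -0.12 and none passed (adjusted p = 0.872, 0.432, 0.257 and 0.564).

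**Figure D4:**
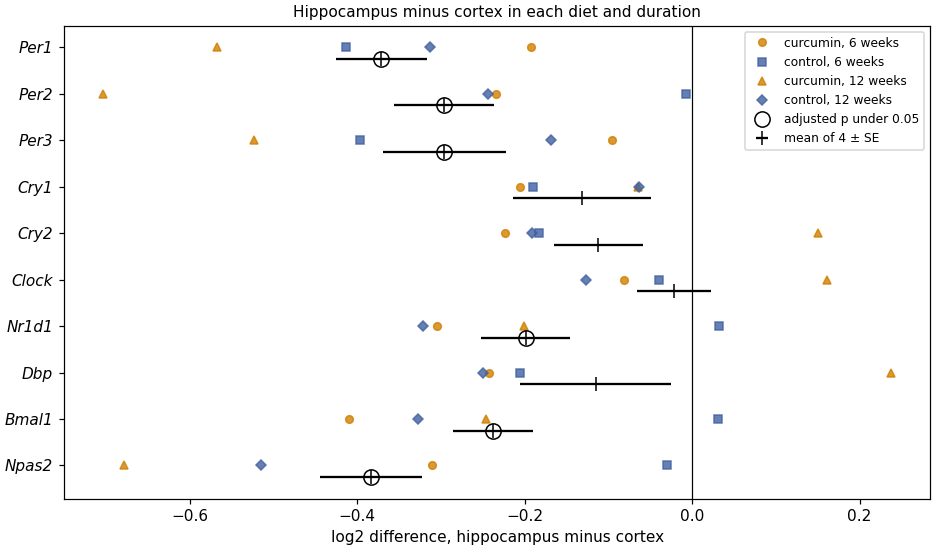
Difference between hippocampus and cortex (x axis, log2) for the 8 clock genes and Bmal1 and Npas2 (y axis); coloured symbols are the differences of single diet and duration groups, black marks are the mean of the 4 with its standard error and open rings mark an adjusted p under 0.05. All 4 symbols of Per1 lie left of 0, and the rings mark Per1, Per2, Per3, Nr1d1, Bmal1 and Npas2.

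In all, 4 of 8 clock genes were called lower in hippocampus, against 3.63% of all clusters, and 0 higher, against 6.05%, with 9.67% of clusters called in either direction. Arrays were apart in the same direction in all 4 groups for Per1 alone among the 8, and for 4.03% of clusters. Of the 14 further clock genes 4 were lower, namely Npas2 (-0.38 ± 0.06, adjusted p = 0.00213), Bhlhe40 (-0.37 ± 0.07, 0.00486), Bmal1 (-0.24 ± 0.05, 0.00859) and the kinase gene Csnk1e, whose product phosphorylates PER proteins (-0.19 ± 0.04, 0.00712), and none was higher. Npas2 differed by -0.68 in curcumin-fed and -0.51 in control rats after 12 weeks, and by -0.31 and -0.03 after 6 weeks.

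The tissue call of Per3 was lost without any 1 of 7 arrays (-0.30 to -0.26, adjusted p = 0.0503 to 0.0710). These were both arrays of the 6-week curcumin hippocampus, replicate 2 of the 6-week control and 12-week curcumin hippocampus, replicate 1 of the 6-week control cortex and replicate 2 of both 12-week cortex groups. The call of Nr1d1 was lost without any 1 of 9 arrays (-0.21 to -0.18, adjusted p = 0.0508 to 0.0965). These were all 4 arrays of the 12-week hippocampus, replicate 2 of both 6-week hippocampus groups, and replicate 1 of the 6-week control and of both 12-week cortex groups. Without the 3 arrays with markers of neighbouring tissue, Per1 alone of the 8 was called (-0.32, adjusted p = 0.0323), while Per2, Per3 and Nr1d1 differed by -0.31, -0.29 and -0.17 (adjusted p = 0.0832, 0.148 and 0.248), with 4.02% of clusters called. Of the further clock genes, Bmal1 and Csnk1e also lost their tissue calls without these arrays (-0.24 and -0.17, adjusted p = 0.0602 and 0.122). Of 12 immediate early genes, which share with Per1, Per2 and Bhlhe40 a response to neuronal activity, 8 were lower and 2 higher in hippocampus, among them Npas4 at -1.04 ± 0.14 and Fos at -0.64 ± 0.09 (adjusted p = 0.000794 and 0.00104). Their mean level was 7.21 to 7.68 on the hippocampal arrays, against 7.64 to 8.16 on the cortical arrays, and their part in the clock values was not tested. The 2 higher ones were Nr4a3 (0.34) and Dusp6 (0.24).

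The order of the 8 groups by mean level differed from gene to gene. The cortex of curcumin-fed rats after 12 weeks had the highest mean of Per1 (7.86), Per2 (7.86), Per3 (8.20) and Nr1d1 (8.68) and the lowest of Clock (8.23). For Per2 and Per3 its 2 arrays lay above both arrays of the next group, whereas for Per1 and Nr1d1 they overlapped with it. Dbp was highest in the curcumin-fed hippocampus after 12 weeks (9.41) and lowest in the same tissue and diet after 6 weeks (8.70). Cry2 was lowest in the 2 hippocampal groups of 6 weeks (8.89 and 8.85 in curcumin-fed and control rats), whose arrays lay below those of the next group. Cry1 was lowest in the 2 hippocampal groups of 12 weeks (6.39 and 6.34), which overlapped with their neighbours.

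Genes whose pattern over the 16 arrays was most like that of each clock gene were found by Pearson's r after each tissue's mean was subtracted, among 14316 genes. They were Hnrnpd (r = 0.85) and Med8 (0.83) for Per1, Mapk11 (0.93) and Zfp958 (0.90) for Per2, and RT1-Ba (0.92) and Cd74 (0.87), of the class II histocompatibility pathway, for Per3. They were Tmco3 and Dcps (both 0.92) for Cry1, Ubl7 (0.95) and Rab31 (0.93) for Cry2, and Rab5a and Dek (both 0.93) for Clock. They were Kcnj9 (0.91) and Eipr1 (0.90) for Nr1d1 and Rab40b (0.94) and Ndufab1 (0.91) for Dbp. The 8 clock genes themselves were left out of this ranking beforehand, so likeness among them was not examined. None of these 16 genes belongs to the list of further clock genes, which were not left out. The arrays share tissue, pools and dissection, and the highest of so many coefficients are given as a description.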

How the data were processed

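The authors hybridised pooled RNA to Affymetrix arrays and deposited log2 values made with RMA in Expression Console, per the labels, with versions not given in the sources used here. The methods name an exon array, and the clusters matched gene array annotation. The table held 27342 transcript clusters and 0 missing values, and array medians ran from 6.35 to 6.44. Probe-level data were not used here, and the small number of arrays limits the precision. The platform annotation gave 1 symbol to 15097 clusters, several to 323 and none to 11922.

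All 16 arrays were fitted as 8 groups with limma 3.58.1 in R 4.3.3 (lmFit, contrasts.fit, eBayes), with 8 residual and 3.12 prior degrees of freedom. Within each comparison the Benjamini-Hochberg adjustment covered every cluster. The 16 comparisons were 13 fixed ones and 3 mean duration contrasts added after seeing the data. Clock genes were all described, with Bmal1, Npas2 and every other listed clock gene that was called, and the 2 most similar genes of each. Members, lists and motifs were chosen with earlier results of these data known. Motifs were searched in RefSeq promoter windows with Python 3.11.15, and figures drawn with matplotlib 3.10.9. The fit was tested on simulated data. The main fit did not pair arrays by replicate number. Correlations of deviations ran between -0.43 and 0.27 over 12 pairs of groups, and from -0.15 to 0.16 between the tissues of a diet and duration. Such values do not settle whether a number stands for the same pool in both tissues. Alternatives were another threshold, filter or normalization, left-out arrays, smaller fits, weights, and replicate or pool blocks.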

Additional observations from a re-analysis of the deposited data

Results flagged for a closer look

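The curcumin effect of Per3 in the cortex was 0.92 ± 0.21 larger at 12 than at 6 weeks on the log2 scale, and that of Per1 0.57 ± 0.15 larger, because both curcumin arrays were above both control arrays at 12 weeks and below them at 6 weeks. The test of the difference itself did not pass for either gene (limma, adjusted p = 0.0576 and 0.0945, 2 arrays per group). Bmal1 had the reverse pattern, with an effect that was -0.45 ± 0.13 different at 12 against 6 weeks (adjusted p = 0.128). In the 12-week rats the curcumin effect on Dbp was 0.49 ± 0.25 larger in hippocampus than in cortex, with arrays apart in opposite directions in the 2 tissues (adjusted p = 0.570). The first 3 of these rest in part on the 6-week cortex controls, of which replicate 2 carried olfactory bulb and hypothalamic markers and replicate 1 had the highest striatal marker level of all arrays (8.97). Without replicate 2 the values were 1.02, 0.46 and -0.38 (adjusted p = 0.122, 0.296 and 0.360), and without replicate 1 they were 0.81, 0.69 and -0.52 (adjusted p = 0.0859, 0.0437 and 0.0907).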

How the results depend on the processing

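The number of the 8 clock genes called stayed at 0 under every alternative run for both hippocampal diet comparisons, for the cortical diet comparison at 6 weeks, for the control hippocampus over time, and for 3 of the 4 differences between curcumin effects. The other counts moved as follows, each against its count at the settings of the report. With an adjusted p under 0.1, the cortical diet comparison at 12 weeks had 2 (against 0), where 5.91% of all clusters were called. Duration had 2 in the control cortex (0, 14.2% of clusters), 2 in the curcumin-fed hippocampus (0, 4.29%) and 3 in the curcumin-fed cortex (0, 5.84%). The cortical difference between curcumin effects had 2 (0, 3.71%) and the cortical duration mean 3 (1, 14.1%). Shares of all clusters are not given for the counts that follow, here and in the paragraphs below. These counts therefore describe the settings only and are no result about the clock genes. Without the dimmest 25% of clusters, the control cortex over time had 1, the cortical difference between effects 1 and the cortical duration mean 2. With quantile normalization, over all arrays and within each tissue alike, the cortical diet comparison at 12 weeks had 1, the control cortex over time 1, the curcumin-fed hippocampus 1, the curcumin-fed cortex 2, the cortical difference between effects 1 and the cortical duration mean 2. With only the 8 arrays of a tissue, the curcumin-fed hippocampus over time had 1 and the cortical duration mean 0. With a variance trend and robust estimation, the control cortex over time, the curcumin-fed cortex over time and the cortical difference between effects had 1 each. With array weights, the control cortex over time had 1, the curcumin-fed hippocampus over time 2 and the cortical duration mean 0.

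Leaving out 1 array at a time gave 2 to 4 genes for tissue (against 4), 0 to 2 for the hippocampal duration mean (2), 0 to 2 for the cortical duration mean (1), 0 to 1 for duration in the control cortex (0), 0 to 1 for the cortical difference between effects (0) and 4 to 5 for the duration mean over both tissues (4). Without the 3 arrays with markers of neighbouring tissue, chosen after seeing the data, 1 gene was called for tissue, 1 for the duration mean over both tissues, 1 for the hippocampal mean and 0 for the cortical mean. The causes of these changes were not tested. Of 2192 values of single clock genes under alternatives, 92 changed sign, none of them a called value.

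Replicate numbers were also fitted as a block. With the replicate block the cortical duration mean had 0 genes (against 1), tissue had 3 (against 4), and the pairing of numbers is not supported by the labels. Crossed numbers, tried for the 2 diet or duration comparisons whose numbers correlated under -0.1, gave 0 clock genes each. With 2 arrays per group, differences as small as most of those given here could not be called.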
